A study of Mus musculus with 3 samples.

Results

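The β subunit genes of the sodium pump, Atp1b1, Atp1b2 and Atp1b3, were examined in a genome-wide map of binding by estrogen-related receptor α (ESRRA) in mouse duodenal villus cells. They are 3 of the 22225 protein-coding gene symbols in the GENCODE M1 annotation of the mouse genome mm9. A binding peak was assigned to a gene where its midpoint lay within 30 kb of a transcript start site of the gene or inside it. By this rule Atp1b1 held 8 of the 1639 ESRRA peaks, and Atp1b2 and Atp1b3 held 0 and were kept as negatives. The genes were chosen by measured values, namely the number and position of these peaks, so the peak counts describe the choice and no test was run on them.

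The series holds 3 chromatin libraries from the duodenal epithelium of adult WT mice, of the C57BL/6 strain on regular chow by the study's methods. For 2 of them, chromatin of villus cells was immunoprecipitated with an antibody against ESRRA and sequenced (ChIP-seq), and 1 is input chromatin without immunoprecipitation. No library came from a mutant or treated animal, and the labels do not say whether both ChIP libraries came from separate mice. The values used here were the positions of peaks that the authors called on both ChIP libraries merged, so no value below has a replicate error, read depth is unknown from the list, and every peak counts the same whatever its height. Expression was not measured in these libraries, so the villus label could not be checked against marker genes.

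The sodium pump hydrolyses ATP to move sodium out of the cell and potassium into it. Its α subunit carries the ions, its glycosylated β subunit is needed for the α subunit to fold and reach the plasma membrane, and small FXYD proteins adjust its activity. In enterocytes the pump sits in the basolateral membrane, and the sodium gradient that it maintains drives the uptake of glucose, amino acids and other nutrients through sodium-coupled carriers of the brush border. ESRRA is an orphan nuclear receptor known for its control of genes of energy metabolism, and it binds DNA at an extended half-site written TCAAGGTCA.

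The 8 peaks formed a single run over Atp1b1, which lies on the minus strand of chromosome 1 (ENSMUSG00000026576.7, chr1:166367398-166388486, 21.1 kb, 1 annotated transcript with 6 exons). The run reached from chr1:166367165 to chr1:166391471 and thus spanned the gene from end to end. Peaks are numbered here 1 to 8 in the direction of transcription. In peaks 1 to 5, which are those around the 5′ end and in the 5′ portion of the gene, the sequence AAGGTCA, the core of the ESRR half-site, was found 7 times, counting both strands. The core sites and the best matches to TCAAGGTCA in these 5 peaks are printed, since the peaks differ in them, each read 5′ to 3′ on its own strand from mm9. Capitals mark the 9 bases of the best match to TCAAGGTCA, and where the core AAGGTCA alone is marked, the 7 bases of the core.
Peak 1, chr1:166391054-166391062, minus strand: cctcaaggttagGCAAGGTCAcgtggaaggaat
Peak 1, chr1:166391064-166391072, minus strand: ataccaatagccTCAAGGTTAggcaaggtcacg
Peak 1, chr1:166391143-166391149, plus strand: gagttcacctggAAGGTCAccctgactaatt
Peak 2, chr1:166389610-166389618, plus strand: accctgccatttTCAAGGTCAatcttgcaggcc
Peak 3, chr1:166387155-166387163, minus strand: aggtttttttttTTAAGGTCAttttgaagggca
Peak 4, chr1:166382965-166382973, plus strand: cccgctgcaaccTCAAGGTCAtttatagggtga
Peak 4, chr1:166383186-166383194, plus strand: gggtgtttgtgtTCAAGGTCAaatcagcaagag
Peak 5, chr1:166381109-166381117, plus strand: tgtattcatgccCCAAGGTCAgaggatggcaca
Peak 5, chr1:166381443-166381451, plus strand: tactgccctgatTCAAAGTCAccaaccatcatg

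Peaks 2 and 4 held the complete TCAAGGTCA, peak 2 at 1 site and peak 4 at 2 sites. Peaks 1, 3 and 5 held 9-base sequences that differ from it at 1 base. In peak 1 a pair of such near matches stood on the same strand with 1 base between them. One of that pair, TCAAGGTTA, and a near match at the edge of peak 5, TCAAAGTCA, do not contain the core. Of the 7 core sites, 5 lay on the strand opposite to the gene. TCAAGGTCA contains AAGGTCA, which in turn contains the general nuclear receptor half-site AGGTCA, so counts of these sequences overlap.

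The midpoint base of peaks 2 and 4, with 100 bases on each side, shows where the complete half-site lies within a peak. They are printed on the minus strand, the strand of the gene, so that the half-site appears as its reverse complement in capitals.
Peak 2 centre, chr1:166389531-166389731, minus strand: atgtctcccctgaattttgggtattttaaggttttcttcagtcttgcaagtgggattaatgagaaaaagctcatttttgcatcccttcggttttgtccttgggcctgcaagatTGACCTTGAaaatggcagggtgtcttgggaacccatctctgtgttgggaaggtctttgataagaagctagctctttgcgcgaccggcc
Peak 4 centre, chr1:166382850-166383050, minus strand: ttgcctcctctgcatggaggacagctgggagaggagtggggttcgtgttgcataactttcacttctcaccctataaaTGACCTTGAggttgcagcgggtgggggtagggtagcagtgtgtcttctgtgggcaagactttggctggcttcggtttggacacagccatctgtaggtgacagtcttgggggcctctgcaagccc

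In peak 2 the half-site was 17 bp from the peak midpoint, and in peak 4 one of its sites lay 19 bp and the other 240 bp from the midpoint. Only the nearer site of peak 4 is therefore inside the printed centre.

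Along the gene, the peaks flanked the start site without covering it. Peak 1 (chr1:166390871-166391471) had its midpoint 2685 bp upstream of the start site and peak 2 (chr1:166389331-166389931) 1145 bp upstream. Peak 3 (chr1:166386938-166387538) lay in intron 1, 1248 bp downstream by its midpoint. The nearest bases of peaks 2 and 3 were 845 and 948 bp from the start site, and 0 of the 8 peaks had a midpoint within 1 kb of a start site of any gene. Promoter peaks by that definition made up 29.8% of all 1639 peaks.

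Intron 2, at 10138 bp the longest intron of Atp1b1, held 3 peaks. These were peak 4 (chr1:166382650-166383250), peak 5 (chr1:166380880-166381480) and peak 6 (chr1:166377984-166378584), with midpoints 5536, 7306 and 10202 bp downstream of the start site. The next 9861 bp toward the 3′ end, the widest gap of the run, were free of peak midpoints and took in the remainder of intron 2, exons 3 to 5 and introns 3 to 5. Peak 7 (chr1:166368123-166368723) and peak 8 (chr1:166367165-166367765) had midpoints in exon 6, 20063 and 21021 bp from the start site. Exon 6 is the last exon. Peak 7 overlapped it by 548 bases, of which 261 were coding and 287 untranslated, and peak 8 overlapped its untranslated end by 368 bases and then ran past the end of the gene.

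In all, 2 of the 8 midpoints were intergenic, 4 intronic and 2 exonic. Peaks covered 3373 of the 21089 bases of the gene. Exons made up 11.5% of the gene and 27.2% of its bases in peaks, all of them in exon 6. The other gaps between neighbouring midpoints ranged from 958 to 4288 bp. Outside the run, the nearest ESRRA peaks on chromosome 1 were 8525 kb below and 1677 kb above. The nearest annotated genes were Nme7, a nucleoside diphosphate kinase family member 32.6 kb away, and the long noncoding RNA gene Gm16608 45.0 kb away, so the run overlapped the annotation of no gene other than Atp1b1.

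**Figure D1:**
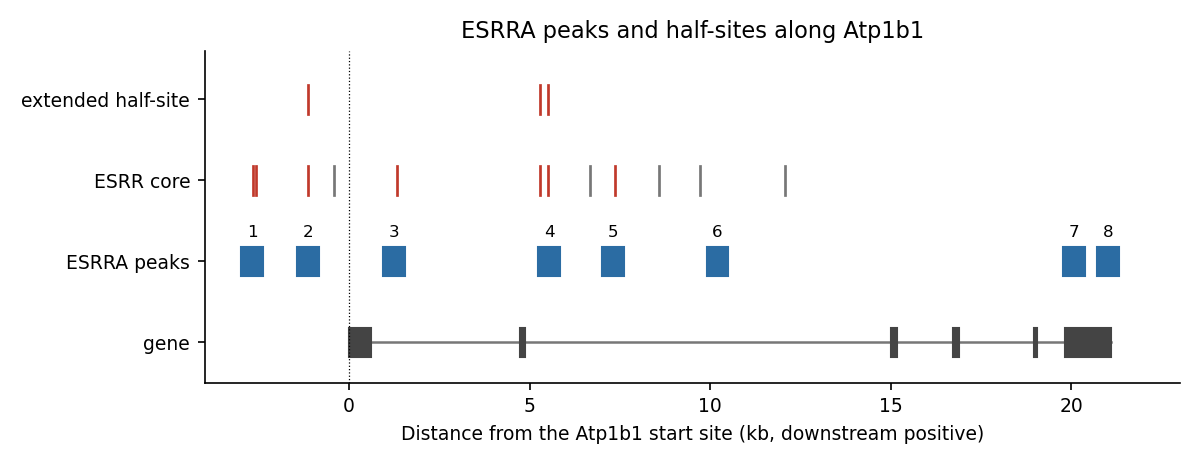
Positions along Atp1b1 in kb from its start site (dotted line), with exons as dark boxes, the 8 ESRRA peaks as blue boxes numbered in the direction of transcription, and sites of the ESRR core and extended half-site as ticks, red inside a peak and grey outside. Peaks 1 to 5 carry 7 core sites, peaks 6 to 8 carry 0, and the start site lies between peaks 2 and 3.

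The number of peaks placed Atp1b1 among few genes, as the choice of the gene implies. Across the protein-coding genes, 9.11% had at least 1 assigned peak, and 0.0855%, or 19 genes, had 8 or more. A peak midpoint inside the gene itself was found for 3.41% of genes, and 5 or more for 0.036%, or 8 genes. With 6 midpoints inside it, Atp1b1 ranked 5 by this count. The genes ahead of it were St3gal4, a sialyltransferase, with 14, Slc5a1, the sodium-glucose cotransporter, with 12, Mgam, the brush-border maltase-glucoamylase, with 9, and Sis, sucrase-isomaltase, with 8. Those after it were Gm20388 with 6 in a gene model of 4435 kb, and Rbp2, a cellular retinol-binding protein, and Abcc2, an organic anion transporter, with 5 each. Per length, Atp1b1 held 2.85 midpoints per 10 kb of gene, beside 2.60 in Rbp2, 2.05 in Slc5a1, 1.99 in St3gal4, 1.01 in Sis, 0.897 in Abcc2, 0.642 in Mgam and 0.0135 in Gm20388. Shorter genes with fewer midpoints were denser, such as Lgals4, a galectin, with 4 midpoints or 5.06 per 10 kb, and Krt20, a keratin, with 4 or 4.10 per 10 kb. With 1 merged list, these values have no error from replicates, and neighbouring values in this order cannot be separated by a test.

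The sequence content of the peaks was not used to choose the gene. The core AAGGTCA, searched on both strands over the whole peak of 601 bases, was present in 5 of the 8 Atp1b1 peaks, or 62.5% (95% Wilson interval 30.6% to 86.3%, which covers counting error only). It was present in 44.0% of all peaks while 12.6% of 3074 equally wide windows placed 2 kb from the peaks held it. Of the 10 flanking windows of the Atp1b1 peaks, 1 held it. The complete TCAAGGTCA was present in 2 of the 8 peaks, or 25.0% (7.15% to 59.1%), in 14.3% of all peaks, in 1.59% of the flanking windows and in 0 of the 10 beside Atp1b1. The interval for 8 peaks is wide enough to hold both the share of all peaks and values well above it. It treats the peaks as independent, which peaks of 1 locus are not, and a difference from all peaks was not tested.

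All 8 Atp1b1 peaks lay in unique sequence, with a median of 1 genomic copy of their 24-base words. The comparison with other unique peaks is therefore closer. Of 1315 peaks with a median of at most 10 copies, here called single-copy, 51.4% held the core and 17.7% the complete half-site. Among the 780 of these with no other peak within 30 kb, the shares were 60.8% and 21.9%. Among the 136 other single-copy peaks that stand, like those of Atp1b1, in runs of 5 or more, they were 23.5% and 4.41%, or 32 and 6 peaks. The Atp1b1 shares thus lay beside those of isolated peaks and above those of peaks in other long runs, without a test, since peaks of a run share 1 locus and are not independent.

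**Figure D2:**
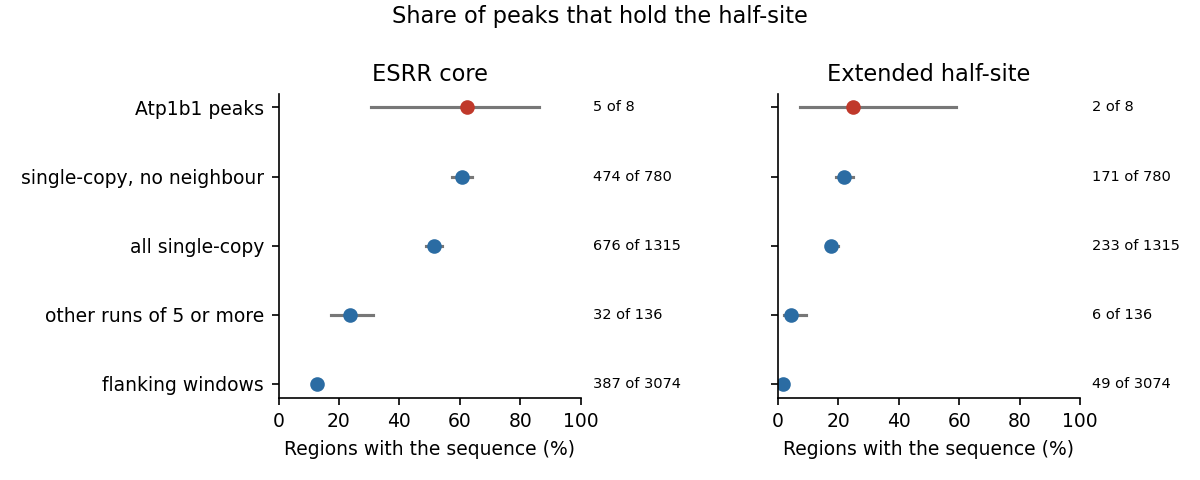
Share of regions in percent that hold the ESRR core (left) or the extended half-site (right), as points with 95% Wilson intervals, for the Atp1b1 peaks, for 3 sets of single-copy peaks and for flanking windows, which are drawn without an interval. The Atp1b1 points, at 62.5% and 25.0%, lie near those of single-copy peaks without a neighbour, at 60.8% and 21.9%.

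The position of the core within the peaks was also examined. In the 5 Atp1b1 peaks with a core, the site nearest the midpoint was 25, 16, 80, 20 and 66 bp away in peaks 1 to 5, a median of 25 bp. All 5 were within 100 bp and 3 within 50 bp. In the 676 single-copy peaks with a core the median distance was 60.5 bp and 68.8% were within 100 bp, while in the 32 of other long runs the median was 115 bp and 46.9% were within 100 bp. With the search limited to 100 bases on each side of the midpoint, 5 of the 8 Atp1b1 peaks had a core, as before. Under this limit the share of all peaks with a core dropped from 44.0% to 29.3%.

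The peaks without a core were the 3 farthest from the start site. Peaks 6 and 7 differed from TCAAGGTCA at 2 or more of 9 bases in every position. Peak 8 had a best match with 1 difference, 278 bp from its midpoint and so close to its edge. By this measure of fewest differences, the 8 Atp1b1 peaks divided into 2 with none, 4 with 1 and 2 with 2. Of the single-copy peaks, 17.7% had none, 37.3% had 1 and 39.9% had 2. Of the other long-run peaks, 4.41% had none, 21.3% had 1 and 64.0% had 2. GC content moved along the gene as well. It was 49.1%, 48.3%, 47.6%, 48.8% and 45.6% in peaks 1 to 5 and 45.1%, 40.4% and 41.1% in peaks 6 to 8. The median over the 8 was 46.6%, beside 48.8% over all peaks, 50.4% over single-copy peaks and 46.4% over other long-run peaks. The part of base composition in the absence of the core from peaks 6 to 8 was not tested.

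The share of peaks with the core was set beside that of the other long runs. In the whole list, 1242 runs were formed with gaps of at most 30 kb between midpoints, of which 1043 were single peaks and 22 held 5 or more. Among the 20 of these that were mostly single-copy, the longest had 17 peaks at St3gal4, 14 at Slc5a1 and 12 over the noncoding RNA genes Neat1 and Malat1. Those of 8 peaks were at Rbp2 with a span of 22.7 kb between outer midpoints, Atp1b1 with 23.7 kb, Plac8 and Cops4 with 23.9 kb, and Mgam with 45.8 kb. At St3gal4 2 of the 17 peaks had the core, at Slc5a1 1 of the 14, and at Neat1 and Malat1 3 of the 12. In the runs of 8 it was present in 5 at Atp1b1, 3 at Rbp2, 3 at Mgam and 2 at Plac8 and Cops4. By the share of peaks with the core Atp1b1 stood 2nd of the 20, after the run at 4933422H20Rik and Slc16a5 with 80%. Next came the run over Trmt112, Esrra and Bad with 60%, whose 5 peaks spanned 70.7 kb and included 4 promoter peaks. The median over the 20 was 20%. Atp1b1 and the run over Trmt112, Esrra and Bad were the 2 with more than 1 peak holding the complete half-site, with 2 and 3 such peaks. Atp1b1 and St3gal4 were the 2 of the 20 with no promoter peak.

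**Figure D3:**
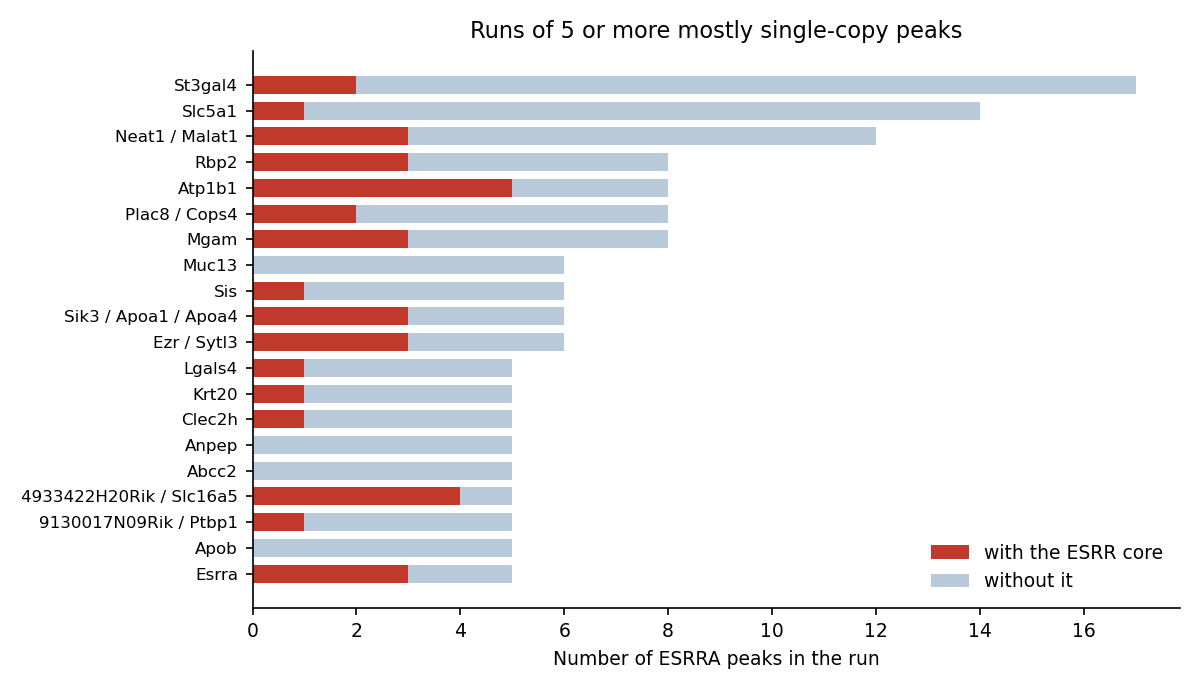
Number of ESRRA peaks in each of the 20 mostly single-copy runs of 5 or more, named by the genes they lie over, split into peaks with the ESRR core (red) and without it (grey). The run labelled Esrra lies over Trmt112, Esrra and Bad. Of the 4 runs with 8 peaks, that at Atp1b1 has the most with the core, 5, beside 3, 3 and 2.

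The half-sites of Atp1b1 were compared with those in the same windows that had no peak. Within 30 kb of its start site or inside the gene, Atp1b1 had 23 core sites, of which 7 lay in peaks, and 4 complete half-sites, of which 3 lay in peaks. The remaining complete site was 25549 bp upstream of the start site and 22.9 kb from the nearest peak. Across the genome, 0.206% of 504476 core sites and 0.564% of 56720 complete half-sites lay in peaks. Peaks took up 4808 of the 60001 bases of the Atp1b1 window and 984948 of 2654895218 bases of the genome. Atp1b1 was chosen by its number of peaks, so a larger share of its sites in peaks follows from the choice. The window of Atp1b1 held 3.83 core sites per 10 kb, where the median of all protein-coding genes was 2.00 and their upper quartile 2.39. The Atp1b1 value counts the 7 sites in peaks, so it is not independent of the choice either. The density of core sites set genes with a peak little apart, with a median of 2.13 beside 2.00 for genes without. Among the FXYD genes, none of which had a peak, it ranged from 1.32 at Fxyd1 to 3.78 at Fxyd2.

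Atp1b3, whose product is a β subunit found in many tissues, had no peak (ENSMUSG00000032412.6, chr9:96233099-96264766, minus strand). The nearest ESRRA peak was 531.6 kb from its start sites. Its window held 13 core sites, or 2.11 per 10 kb, and 4 complete half-sites, 0 of them in a peak. Atp1b2, whose product is the β subunit best known from glia and neurons, had no peak either (ENSMUSG00000041329.7, chr11:69413238-69419444, minus strand), with the nearest 241.5 kb away. Its window held 17 core sites, or 2.69 per 10 kb, and 3 complete half-sites, 0 of them in a peak. A peak below the threshold of the authors' caller would not be in the list, so these counts say that no peak was listed, not that ESRRA was absent.

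The complete half-sites of the 2 negative genes and the remaining one of Atp1b1 are printed to set them beside the sites in peaks 2 and 4. All lie outside the genes, and capitals mark TCAAGGTCA.
Atp1b1, chr1:166414031-166414039, minus strand: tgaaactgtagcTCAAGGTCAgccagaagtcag
Atp1b3, chr9:96267917-96267925, plus strand: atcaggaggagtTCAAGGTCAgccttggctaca
Atp1b3, chr9:96272191-96272199, plus strand: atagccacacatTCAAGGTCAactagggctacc
Atp1b3, chr9:96284192-96284200, minus strand: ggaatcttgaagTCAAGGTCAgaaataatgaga
Atp1b3, chr9:96289871-96289879, plus strand: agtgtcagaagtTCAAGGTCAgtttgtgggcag
Atp1b2, chr11:69396109-69396117, plus strand: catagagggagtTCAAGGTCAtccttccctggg
Atp1b2, chr11:69421067-69421075, plus strand: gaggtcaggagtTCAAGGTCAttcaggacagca
Atp1b2, chr11:69445805-69445813, plus strand: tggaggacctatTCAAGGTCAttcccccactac

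The 9 bases are the same in each, and the surrounding bases differ in how often they recur in the genome. The half-site with 4 bases on each side, 17 bases in all, had 2 genomic copies at each of the 3 sites in Atp1b1 peaks and 6 at the site outside a peak. The Atp1b3 sites had 2910, 1, 3 and 26 copies in the order printed, and the Atp1b2 sites 919, 13 and 2. Over the genome, the median was 3 copies both for the 320 sites in peaks and for those outside, with over 100 copies for 10.6% and 20.1%. Complete half-sites without a peak were common: 81.6% of the protein-coding genes with no assigned peak had at least 1 in their window, as did 88.7% of genes with a peak, and 36.8% of genes without a peak had 3 or more.

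The 250 bases upstream of a single start site of each β subunit gene held no AGGTCA or longer form of the half-site. Atp1b2 and Atp1b3 have 5 and 2 annotated transcripts, and windows at any other start sites of theirs are not given. The 250 bases upstream of the Atp1b1 start site are printed because the peaks stand on both sides of them, and capitals mark GGGCGG or its reverse complement, a sequence bound by factors of the SP and KLF families.
Atp1b1 promoter, chr1:166388487-166388736, minus strand: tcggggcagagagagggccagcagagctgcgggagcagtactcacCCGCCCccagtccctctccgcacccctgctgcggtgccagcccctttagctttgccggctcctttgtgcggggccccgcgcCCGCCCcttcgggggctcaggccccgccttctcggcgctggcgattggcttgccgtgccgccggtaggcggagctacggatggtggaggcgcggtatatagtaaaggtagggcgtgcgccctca

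This window had a GC content of 70.4%, 2 matches to GGGCGG and 0 to AGGTCA or its longer forms. The RefSeq promoter entry for Atp1b1, from a later build, was identical to mm9 over its 300 bases. The windows of Atp1b3 and Atp1b2 had a GC content of 76.8% and 64.0%, 6 and 2 matches to GGGCGG, and also 0 to AGGTCA. Over the wider stretch within 1 kb on either side of the 5′ end of the gene, Atp1b1 had 1 core site, at -432 bp relative to the start site and in no peak, Atp1b2 had 1 and Atp1b3 had 0. Over 22220 promoters of protein-coding genes the median GC content was 54.0%, and 39.6% held GGGCGG, 12.6% AGGTCA, 3.42% AAGGTCA and 0.333% TCAAGGTCA. Most windows of this size thus also lacked the half-site.

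**Figure D4:**
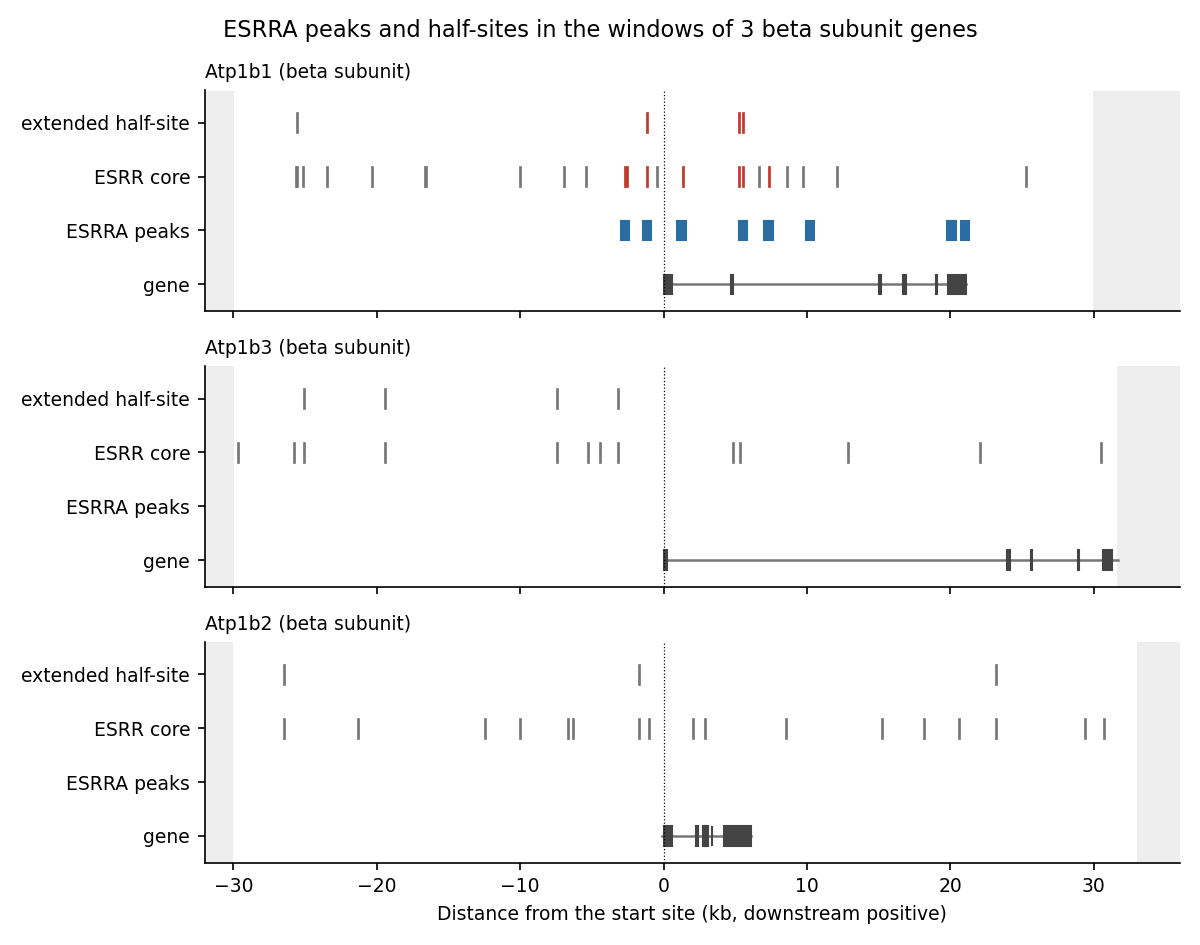
Windows of the 3 β subunit genes in kb from the start site (dotted line), with exons, ESRRA peaks (blue) and sites of the ESRR core and extended half-site as ticks, red inside a peak and grey outside; grey shading lies outside the window. Half-sites are present in all 3 windows, 8 peaks in that of Atp1b1, and 0 in those of Atp1b3 and Atp1b2.

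Further genes of the pump family were examined by the same rule. Atp1a4, an α subunit gene known from testis, had 0 peaks, with the nearest 242.0 kb away, and the β family gene Atp1b4 had 0, with the nearest at 683.3 kb. The 7 FXYD genes had 0 as well, and their nearest peaks lay 167.7 kb from Fxyd6, 197.4 kb from Fxyd2, 332.4 kb from Fxyd5, 344.8 kb from Fxyd7, 348.2 kb from Fxyd1, 364.4 kb from Fxyd3 and 1273 kb from Fxyd4. Across all protein-coding genes 90.9% had no assigned peak, so 0 was the usual count and does not set these genes apart. The distance of 30 kb did not decide whether a gene named in this paragraph or a β subunit gene had a peak: the farthest assigned peak was 21021 bp from the start site of Atp1b1, and the nearest unassigned one was the peak 167.7 kb from Fxyd6.

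Sodium-coupled carriers, most of them known from the brush border, use the gradient that the pump maintains. Of 24 such genes, 9 had a peak, or 37.5%, beside the 9.11% of all protein-coding genes. Slc5a1 had 12 peaks. Slc13a2, a dicarboxylate carrier, had 3. Slc6a19, a carrier of neutral amino acids, its family member Slc6a20b, and Slc9a3, a sodium-proton exchanger, had 2 each. Slc6a6, the taurine carrier, and Slc28a1, a nucleoside carrier, had 1 each, and Slc5a4a and Slc5a4b, relatives of Slc5a1, shared 1 peak. At Slc5a1 the core was in 1 of the 12 peaks, whereas at Atp1b1 it was in 5 of 8. Among other ion pumps, 2 of 10 genes, or 20.0%, had a peak, Atp4a, the gastric proton pump, with 1 at 5541 bp upstream of a start site, and Atp2a1, a calcium pump, with 2. Counts of the remaining lists are not reported here, and their shares were lower than both and closer to that of all protein-coding genes. These shares are descriptions of short lists written with earlier results of these data known.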

How the data were processed

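By the study's methods and the submitters' processing notes, the authors aligned paired-end reads to mm9 with Bowtie2 (2.2.6), merged both ESRRA ChIP libraries with SAMtools (0.1.19) and called peaks with MACS2 at a p-value of 1e-05; FastQC (0.11.3) and deepTools (2.4.2) are also named. The deposited table gave positions in bases for 1639 peaks, all 601 bases wide, with no height or score. Why the peaks have 1 width is not given in the sources used here.

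Peaks were placed by midpoint on NCBI build 37 (mm9) with GENCODE M1, and coordinates are counted from 1. A peak was multi-copy where its 24-base words had a median above 10 genomic copies, as for 324 peaks. Motifs were matched exactly on both strands. Flanking windows lay 2 kb away and touched no peak or gap. Scripts used Python (3.11.15), numpy (2.4.6), scipy (1.17.1) and matplotlib (3.10.9), and were tested on simulated data. No test was run, since 1 merged list has no replicates. Named were all members, genes of the pump family, listed carriers and pumps with a peak, the 8 genes with most midpoints inside them, and the longest runs. Nme7, Gm16608, Lgals4, Krt20, the run at 4933422H20Rik and Slc16a5 and that over Trmt112, Esrra and Bad were named after their values were seen. Some listed genes, and the counts of the lists that hold them, are not reported here. Members and lists were chosen with earlier results of these data known.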

Additional observations from a re-analysis of the deposited data

How the results depend on the processing

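Each of 10 results was recomputed under up to 8 other settings, 50 in all. Of these, 38 left the value within its counting interval, within 1.5 times the count or, for GC content, within the standard deviation among the 8 peaks. Atp1b1 held 6 peaks when the gene body alone was used or when peaks under 1 kb apart counted as 1, and 8 under the other settings tried. Its run held 6 peaks with gaps of up to 5 kb or with such peaks joined, and 8 with gaps of up to 10, 30 or 100 kb. Atp1b2 and Atp1b3 held 0 under each setting tried. With a limit of 5 kb in place of 1 kb, 3 Atp1b1 peaks were near a start site. The share of protein-coding genes with a peak was 5.46% within 10 kb, 20.0% within 100 kb, 3.41% inside the gene only and 8.44% without multi-copy peaks. In place of 5 Atp1b1 peaks with AAGGTCA, 3 held TNAAGGTCA, 2 held TCAAGGTCA and 5 held AGGTCA. For AGGTCA the Atp1b1 share of 62.5% was level with that of all peaks. It was below the 69.9% of single-copy peaks and the 77.3% of those without a neighbour, and above the 41.9% of other long-run peaks. In place of 44.0% of all peaks with AAGGTCA, 14.3% held TCAAGGTCA, 20.4% held TNAAGGTCA and 61.4% held AGGTCA, while AAGGTCA was in 29.3% when only 100 bases on each side of the midpoint were searched and in 51.4% of peaks without the multi-copy ones.

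No paired analysis was possible because the peak list pools the 2 ChIP libraries and no result comes from a test. For the same reason no library was left out in turn. Depth per library is unknown here, a gene without a listed peak is not shown to be unbound, and 8 peaks at 1 locus give wide intervals.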

Other observations

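Sequences of other intestinal factors were also counted in the 8 Atp1b1 peaks, on both strands, where N is any base. The GATA sequence AGATAA was in 3 of them, peaks 4, 6 and 7, beside 27.5% of all peaks and 27.8% of flanking windows. The CDX sequence TTTATNG was in peaks 4 and 8, beside 25.4% and 26.7%. In peak 4 it began at the base after the complete half-site nearer the midpoint. The AP-1 sequence TGANTCA was in peak 5, beside 285 of 1639 peaks and 493 of 3074 flanking windows, and GGGCGG was in peaks 2, 5 and 7, beside 23.2% of peaks and 10.5% of flanking windows. The HNF4 sequence CAAAGTCCA was in 0 of the 8, beside 2.56% and 1.17%. ACTGGAACT, which is TCAAGGTCA written backwards and served as a control, was in 0 of the 8, beside 0.427% of all peaks and 1.07% of flanking windows. Peak 6, which has no core and is 10202 bp into the gene, held 2 GATA sequences, at 76 and 289 bp from its midpoint.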
